A study of Mus musculus with 4 samples.

Results

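The genes described are the 9 listed members of the interleukin 1 family and its receptors, Il33, Il1rl1, Il1a, Il1b, Il1rn, Il1r1, Il1rap, Il1f10 and Il18. They were found by matching the RefSeq accession at the start of each probe set name to the current mouse symbol. All 9 were among the 909 genes named on the array, with 11 of its 1246 probe sets, since Il1rl1 and Il1rap had 2 each. The list was chosen by the level of these genes and by their log2 difference between streptozotocin and control arrays within each culture, so those differences are given as a description, with no test. The samples were 4 expression arrays of cultured vascular smooth muscle cells from wild-type mice, all kept in osteogenic medium, which drives such cells towards a bone-like state. Of these, 2 arrays came from cells given 0.4 mM streptozotocin, a nitrosourea built on glucosamine and used to destroy pancreatic beta cells, and 2 from control cells in the same medium. Both arms were run on the same 2 named cell samples, WT2 (replicate 1) and WTA (replicate 2), which are called cultures below. Every sample title also carries 3w, which the labels do not explain. The labels do not say whether these come from separate animals, so p-values measure only the spread between these samples, which may be technical.

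The interleukin 1 family consists of small cytokines that alert tissue to injury or infection. Interleukin 1 alpha and beta act through the receptor encoded by Il1r1, IL-33 acts through that encoded by Il1rl1 (ST2), and both receptors need the shared accessory chain encoded by Il1rap. Il1rn encodes the antagonist that occupies the interleukin 1 receptor without signalling. Vascular smooth muscle cells are known to answer interleukin 1 with chemokines, interleukin 6 and adhesion molecules, while IL-33 is stored in the nucleus of stromal, endothelial and epithelial cells and released when they are damaged.

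Values are log2 summaries per probe set, made with RMA. No detection calls were used, so 2 lines served to judge background: the median of each array (5.83 to 5.87), and the highest of 10 lymphocyte cytokines on each array (4.50 to 4.64), whose main known source is lymphocytes. Levels on such arrays depend on the probes, so 1 gene's level is not set against another's. Of the 11 probe sets, 5 lay above the median on all 4 arrays, those of Il33, Il1r1, Il1rn, Il1f10 and Il18, where 47% of all 1246 did. Above the lymphocyte cytokines on all 4 arrays lay 9, with 68.8% of all probe sets. The other 2 were Il1a and the dimmer of the Il1rl1 probe sets. Of the smooth muscle list, Bgn, Dcn, Lum and Pdgfrb, which other mesenchymal cells also express, were above the median on all 4 arrays. The defining contractile genes of that list, Acta2, Myh11, Tagln and Cnn1, were not among the named probe sets, so the label could not be checked against them.

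Il33 encodes the nuclear alarmin IL-33. The windows of 250 bases before its annotated starts (RefSeq, GRCm38.p6, plus strand, 5′ to 3′) are shown because Il33 differed most between arrays among the members, with TATAAA or its reverse complement in capitals. The first is chr19:29924863-29925112 and the second chr19:29945540-29945789.
Il33 upstream start: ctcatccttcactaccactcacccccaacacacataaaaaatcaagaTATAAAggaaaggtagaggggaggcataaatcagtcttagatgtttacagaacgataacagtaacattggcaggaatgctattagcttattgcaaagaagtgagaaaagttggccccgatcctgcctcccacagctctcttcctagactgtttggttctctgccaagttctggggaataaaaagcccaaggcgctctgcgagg
Il33 downstream start: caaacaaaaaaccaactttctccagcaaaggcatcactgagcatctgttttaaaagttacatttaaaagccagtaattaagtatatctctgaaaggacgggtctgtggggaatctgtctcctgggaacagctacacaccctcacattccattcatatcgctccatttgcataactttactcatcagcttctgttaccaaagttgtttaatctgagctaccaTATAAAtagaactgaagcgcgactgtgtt
Counted from the start, the match begins at position -203 in the first window and at -29 in the second. TATAAA, searched on both strands, was in 5 of the 14 such windows of the members, those of Il33, Il1a, Il1b and Il18, and in 12.4% of 32851 windows of all genes. TGANTCA, the AP-1 motif, was in 2 of the 14, 1 of Il1a and 1 of Il1rn, and in 6.75% of all. These matches are letters in a window and nothing more, and which start the cells used was not measured.

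Il33 stood at 9.22 in WT2 and 8.83 in WTA with streptozotocin, against 6.70 in WT2 and 9.49 in WTA without it. The control array of WT2 was low and the other 3 were close to each other, so the streptozotocin values lay between the control values. Streptozotocin minus control was therefore 2.52 in WT2, a 5.72-fold higher value, and -0.66 in WTA, a 1.58-fold lower one. In WT2 this was the difference with rank 4 of 1246 from the highest, and in WTA that with rank 13 from the lowest. The streptozotocin arrays averaged 9.02 ± 0.27 and the control arrays 8.09 ± 1.97 (SD, n = 2 each), 0.93 apart. Without the WT2 control array the difference was -0.46, so its direction rests on that array. In whole cultures, fewer cells of a type and less RNA per cell cannot be told apart. Of all probe sets, 1.12% had the WT2 control array lowest by at least 1 log2 unit, and Il33 was the 1 member among them.

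**Figure D1:**
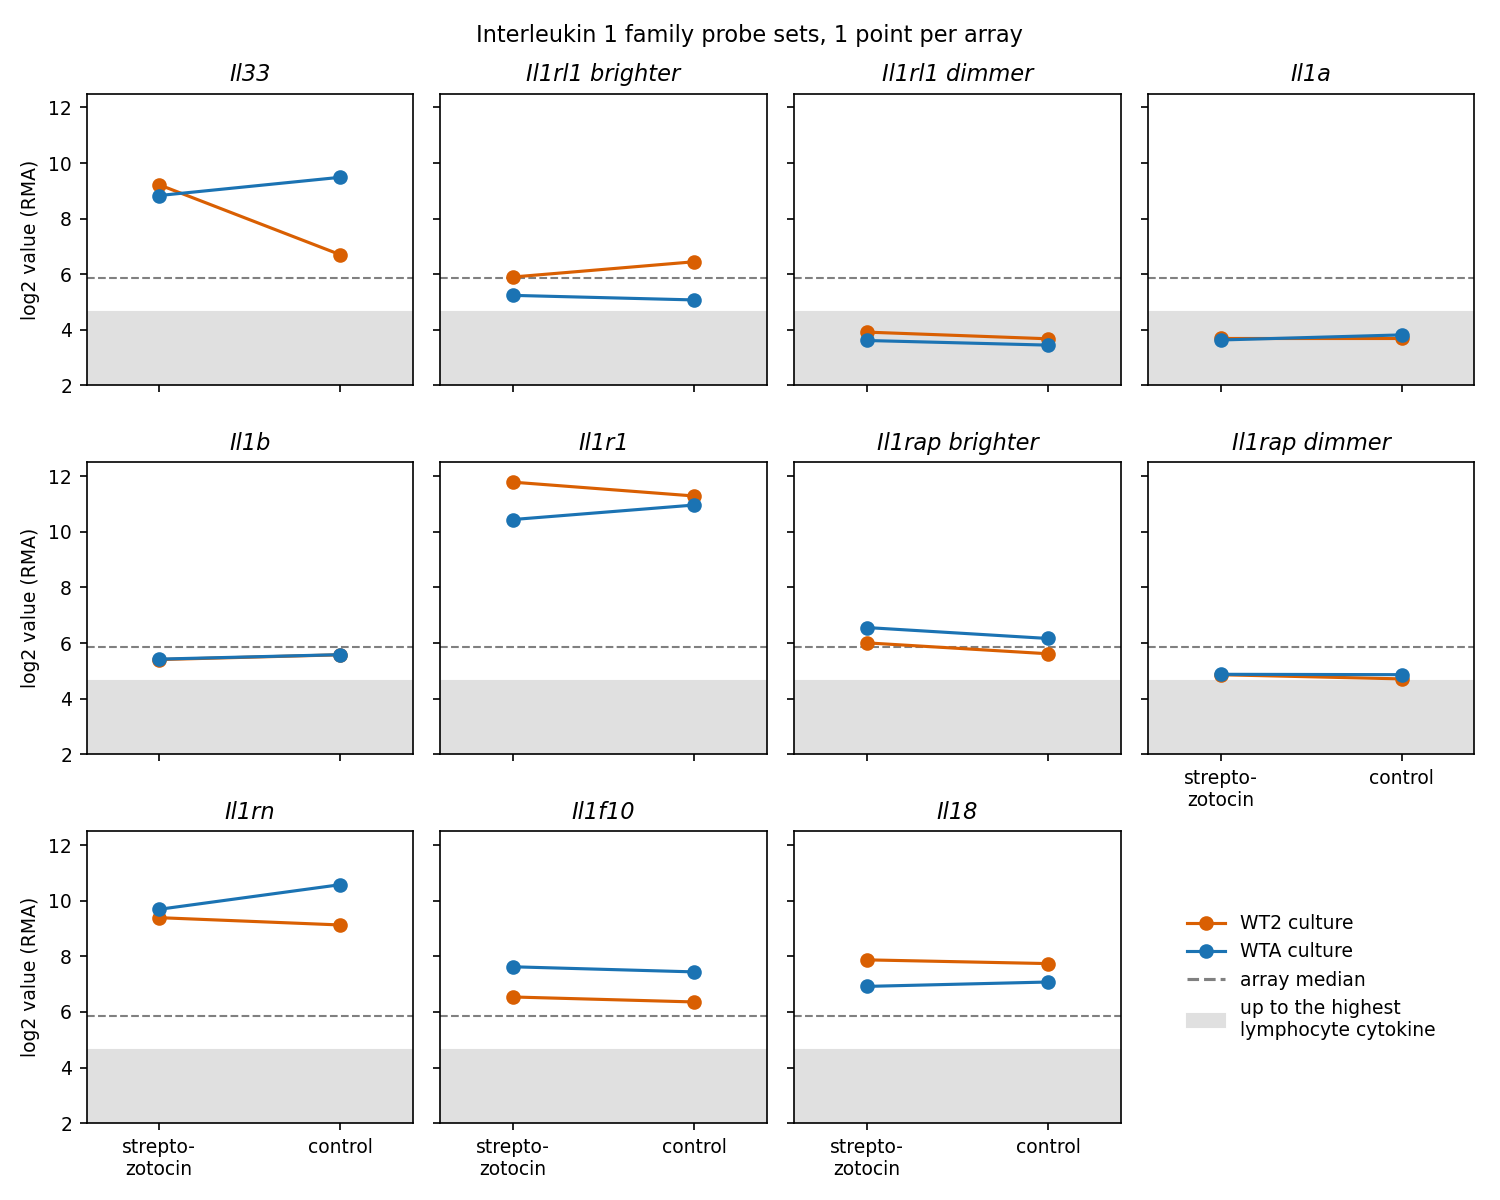
Log2 value of each interleukin 1 family probe set (vertical axis) on the 4 arrays, streptozotocin left of control, with lines joining the 2 arrays of a culture (orange WT2, blue WTA), the array median dashed and the band up to the highest lymphocyte cytokine in grey. The Il33 value of the WT2 control array, 6.70, lies below the other 3, which span 8.83 to 9.49, while Il1a and the dimmer Il1rl1 probe set stay inside the grey band.

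Il1rl1 encodes ST2, the IL-33 receptor, which exists as a membrane form and as a soluble form that captures the cytokine. Its brighter probe set stood at 5.90 in WT2 and 5.24 in WTA with streptozotocin, against 6.45 in WT2 and 5.08 in WTA without it. Both WT2 arrays were above the median and both WTA arrays below it. Streptozotocin minus control was -0.55 in WT2 and 0.16 in WTA, so in each culture this probe set lay in the opposite direction to Il33. This held for the dimmer one in WTA only. The dimmer probe set, at 3.92 and 3.62 with streptozotocin against 3.68 and 3.45 in control cells (WT2 and WTA in each arm), stayed among the lymphocyte cytokine values. Its differences, 0.24 in WT2 and 0.17 in WTA, are those of values near background, and the name of the brighter probe set has an s, which on such arrays may mark probes that several transcripts share. Which form of the receptor each probe set measures is not given in the sources used here.

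The agonist genes of the interleukin 1 receptor lay below the array median on all 4 arrays. Il1a, which encodes the cell-associated interleukin 1 alpha, was between 3.64 and 3.82 on the 4 arrays, below the lymphocyte cytokine line. Il1b, which encodes the inflammasome-processed interleukin 1 beta, stood at 5.41 in WT2 and 5.42 in WTA with streptozotocin, against 5.58 in WT2 and 5.58 in WTA without it. Both streptozotocin arrays were thus below both control arrays, by 0.17 in WT2 and 0.16 in WTA, and all 4 were above the lymphocyte cytokine line. It was the 1 member probe set whose arms did not overlap, while 24.6% of all probe sets had arms that did not. Cd22, the brightest of the 7 measured lymphocyte and NK markers, stood above Il1b on every array, between 5.71 and 5.82, and the others stood below it. The Il1b values may therefore be near background, and the order of its arrays is not read as an effect.

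The receptor and the antagonist genes lay above the array median on all 4 arrays. Il1r1, the signalling receptor, stood at 11.79 in WT2 and 10.44 in WTA with streptozotocin, against 11.29 in WT2 and 10.96 in WTA without it. The streptozotocin array was the higher one in WT2 and the lower one in WTA, with differences of 0.50 and -0.52, and the difference of the means was -0.01. Il1rn, the antagonist, stood at 9.39 in WT2 and 9.69 in WTA with streptozotocin, against 9.13 in WT2 and 10.58 in WTA without it. The WTA control array was the highest, and streptozotocin minus control was 0.26 in WT2 and -0.89 in WTA, a 1.85-fold lower value with rank 6 of 1246 from the lowest. Il1r1, Il1rn and Il33 thus shared the order of higher in WT2 and lower in WTA with streptozotocin.

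Il1rap, the accessory chain of both receptors, had a brighter probe set at 6.01 in WT2 and 6.56 in WTA with streptozotocin, against 5.62 in WT2 and 6.17 in WTA without it. The streptozotocin array was 0.39 higher in WT2 and 0.39 higher in WTA, the closest pair of differences among the members, although the arms overlapped because WTA was the higher culture. The dimmer Il1rap probe set, between 4.71 and 4.88, lay just above the lymphocyte cytokine line and differed by 0.15 in WT2 and 0.01 in WTA. Il1f10 encodes IL-38, a family member with mostly antagonist activity. It stood at 6.54 in WT2 and 7.62 in WTA with streptozotocin, against 6.36 in WT2 and 7.44 in WTA without it. It differed by 0.18 in each culture, less than the gap between the cultures. Il18, a cytokine that acts with interleukin 12 to raise interferon gamma, stood at 7.87 in WT2 and 6.92 in WTA with streptozotocin, against 7.74 in WT2 and 7.08 in WTA without it. WT2 was the higher culture in both arms, and streptozotocin minus control was 0.13 in WT2 and -0.16 in WTA, in the same directions as for Il33, Il1r1 and Il1rn.

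Taking the 11 probe sets together, 4 were higher with streptozotocin in both cultures, both Il1rap probe sets, the dimmer Il1rl1 probe set and Il1f10, and 1, Il1b, was lower in both. Of all probe sets 22.6% were higher in both and 28.5% lower in both. Another 5 went in opposite directions, those of Il33, the brighter Il1rl1, Il1r1, Il1rn and Il18, as did 47.7% of all probe sets. Il1a had the same value on both WT2 arrays. At least 1.5-fold higher in WT2 was 1 member probe set, Il33, with 4.82% of all, and 0 were at least 1.5-fold lower there, with 2.49% of all. In WTA, 2 were at least 1.5-fold lower, Il33 and Il1rn, with 1.69% of all, and 0 were at least 1.5-fold higher, with 0.642% of all. The median difference was 0.18 in WT2 and -0.16 in WTA over the members, and -0.02 and 0.00 over all probe sets. In limma's fit over all 1246 probe sets, 0 (0%) had an adjusted p under 0.05 for streptozotocin against control, and 25 (2.01%) had an unadjusted p under 0.05, 0 of them members. With the replicate block, which pairs the arrays, limma again found 0 (0%) at an adjusted p under 0.05. At an unadjusted p under 0.05 it found 80 (6.42%), 1 of them a member. These differences chose the members, so the counts of members are no test of them.

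**Figure D2:**
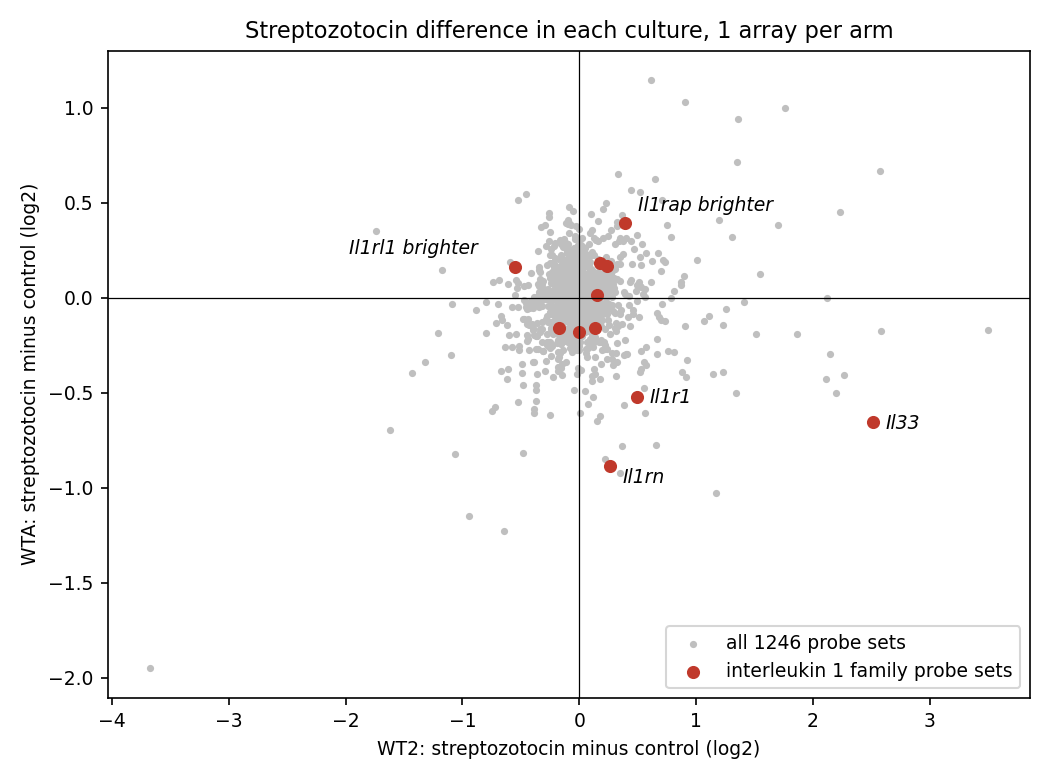
Streptozotocin minus control on the log2 scale in WT2 (horizontal axis) and in WTA (vertical axis), 1 array per arm, for the 11 interleukin 1 family probe sets (red) and all 1246 probe sets (grey). Il33 lies at 2.52 and -0.66, Il1rn at 0.26 and -0.89, and the brighter Il1rap probe set at 0.39 on both axes.

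A comparison of WTA with WT2 used a limma fit that also held the treatment. The contrast itself did not choose the members. Its error comes from how far apart the streptozotocin differences of the 2 cultures lie, and from the spread limma shares over all probe sets. Those differences were used in the choice, so the SEs and p-values below are not independent of it. For Il1f10 they were nearly equal, 0.18 in each culture, which makes its SE small. In this comparison each SD is over 1 streptozotocin and 1 control array of a culture, so it holds the treatment difference and is no spread of replicates. Il1f10 was higher in WTA than in WT2, with 7.53 ± 0.13 in WTA and 6.45 ± 0.13 in WT2 (SD, n = 2 each), a difference of 1.08 (SE 0.09, limma adjusted p = 0.0445). That is a 2.12-fold higher value, seen in both arms. It was the 1 member probe set past the threshold of 0.05, in a fit that called 2.25% of all probe sets, 18 (1.44%) higher and 10 (0.803%) lower in WTA. The call does not hold without either WT2 array or without either WTA array, with adjusted p from 0.0687 to 0.605 in fits with the culture alone. Its difference stayed between 0.99 and 1.18 in those fits.

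The other members did not pass this test. The next smallest adjusted p-values in limma were those of Il18, with 6.997 ± 0.11 in WTA and 7.81 ± 0.09 in WT2 (SD, n = 2 each), a difference of -0.81 (SE 0.12, adjusted p = 0.0812), and of the brighter Il1rap probe set, with a difference of 0.55 (SE 0.09, adjusted p = 0.0993). The brighter Il1rl1 probe set was at 5.16 ± 0.12 in WTA and 6.18 ± 0.39 in WT2 (SD, n = 2 each), a difference of -1.02 (SE 0.21, limma adjusted p = 0.135). Il1r1 differed by -0.83 (SE 0.28) and Il1rn by 0.88 (SE 0.31), with limma adjusted p-values of 0.279 and 0.302. For Il33 the difference was 1.20 with the widest error of the members (SE 0.83, limma adjusted p = 0.585), since its streptozotocin differences lay farthest apart. The arrays of the cultures did not overlap for 8 of the 11 probe sets, as for 49% of all probe sets. Of these, 4 were higher in WTA, with 21.3% of all, and 4 lower, with 27.7% of all. Unadjusted p-values under 0.05 were found for 5 of the 11 and for 16.9% of all. Each culture is 1 named cell sample, so these p-values do not measure how far such samples vary.

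**Figure D3:**
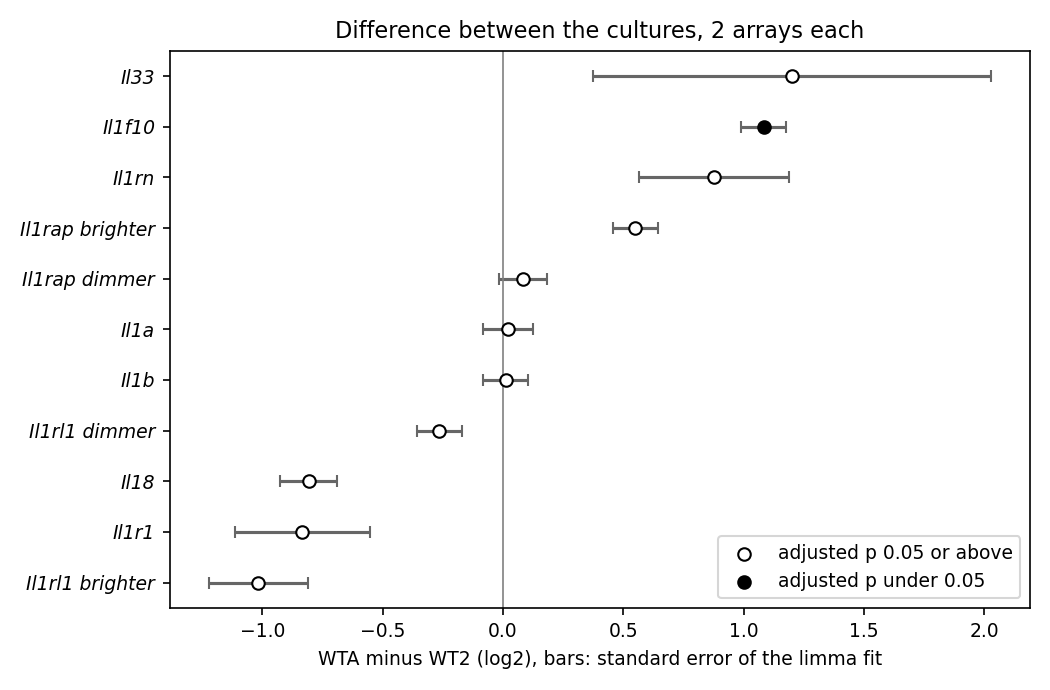
WTA minus WT2 on the log2 scale for the 11 interleukin 1 family probe sets, with the standard error of limma's fit over 4 arrays as bars. The filled point, Il1f10 at 1.08, is the 1 with an adjusted p under 0.05, while Il33 at 1.20 has the widest bar.

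The 5 named genes outside the family whose profile over the 4 arrays was most like that of Il33 were Has2, Cxcl13, Ccl7, Ccl9 and Il4ra. Likeness was the mean absolute difference between log2 values centred on each probe set's own mean. It was 0.36 for Has2, a hyaluronan synthase, 0.37 for Cxcl13, a B cell attractant, and 0.39 for Ccl7, a monocyte attractant, with 0.94 as the median over all other probe sets. For Ccl9, another chemokine, and Il4ra, the shared receptor chain of interleukins 4 and 13, it was 0.43 each. In all 5 the WT2 control array was the lowest. The 5 were picked for likeness to Il33, so their small distances and this shared low array follow largely from the choice. Has2 stood at 7.14 in WT2 and 6.28 in WTA with streptozotocin, against 4.94 in WT2 and 6.78 in WTA without it. Ccl9 stood at 6.71 in WT2 and 6.58 in WTA with streptozotocin, against 5.53 in WT2 and 7.60 in WTA without it. Like Il33, Has2 and Ccl9 were lower with streptozotocin in WTA, by 0.50 and 1.03 on the log2 scale, whereas Ccl7 was higher there by 0.45. Of the members, Il1rn was nearest to Il33, at a distance of 0.64, and the brighter Il1rl1 probe set farthest, at 1.32.

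**Figure D4:**
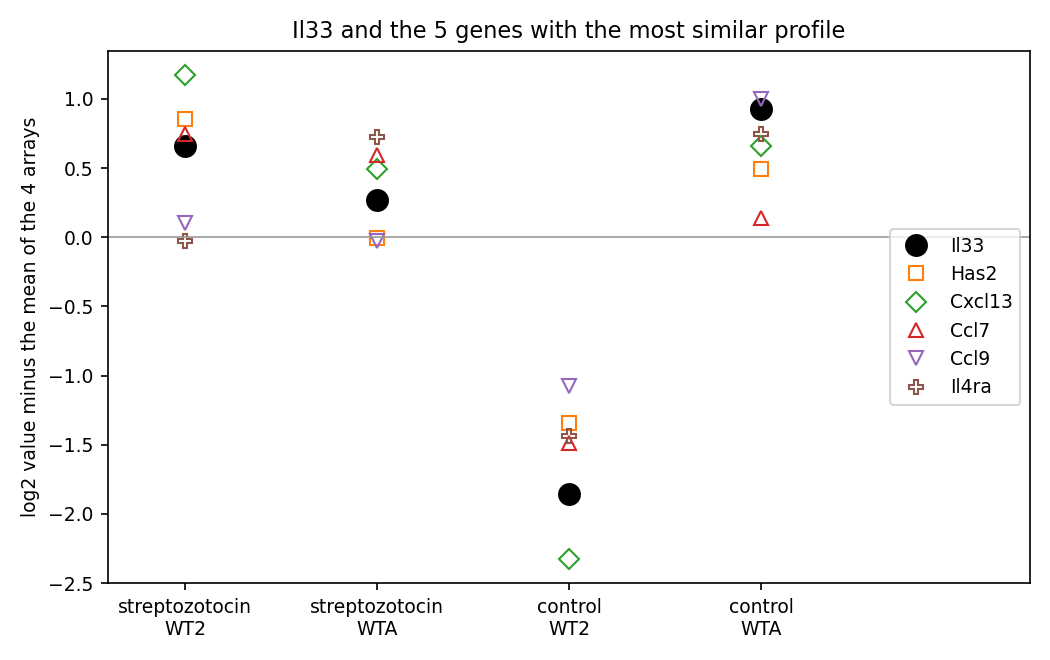
Log2 value minus the mean of the 4 arrays (vertical axis) for Il33 (filled) and the 5 genes with the nearest profile, by array. All 6 have their lowest point in the WT2 control array, which for the 5 follows largely from how they were picked.

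Known targets of IL-1 or IL-33 signalling in stromal cells were described from a list of 23 genes, of which 16 were measured. With streptozotocin, 7 of the 16 were higher in both cultures, 0 lower in both and 9 in opposite directions, with 22.6%, 28.5% and 47.7% of all probe sets. Their median difference was 0.53 in WT2 and 0.08 in WTA, against -0.02 and 0.00 over all probe sets, and 0 passed limma's test. The 4 with the largest differences were Ccl7 (1.34), Il6 (1.04), a cytokine of acute inflammation, Ccl8 (0.88), a monocyte attractant, and Has2 (0.85). Il6 stood at 7.86 in WT2 and 7.94 in WTA with streptozotocin, against 6.16 in WT2 and 7.56 in WTA without it. As for Il33, its WT2 control array was the low one, and this array was the lowest for 12 of the 16 targets, with 23.8% of all probe sets. The list was chosen with earlier results of these data known. It also holds Ccl7 and Has2, picked above for likeness to Il33, so the count tests no link to Il33. For Ccl8 the larger difference was in WTA, 1.15 against 0.61 in WT2, and its WTA streptozotocin array was the highest.

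Of 25 other genes of the family and its signalling chain, 9 were measured, and 0 passed limma's test in either comparison. With streptozotocin, 2 of the 9 were higher in both cultures, 0 lower in both and 6 in opposite directions, with 22.6%, 28.5% and 47.7% of all probe sets. Il18rap had the same value on both WTA arrays. Il1r2, the decoy receptor that binds interleukin 1 without signalling, was the 1 above the array median on all arrays. It stood at 8.76 in WT2 and 7.69 in WTA with streptozotocin, against 7.999 in WT2 and 7.97 in WTA without it. Streptozotocin minus control was 0.76 in WT2 and -0.28 in WTA, in the same order as for Il1r1 and Il1rn. Il1rl2, the IL-36 receptor, was between 5.15 and 5.42, and Il18r1, the binding chain of the interleukin 18 receptor, between 2.87 and 3.16. Il18rap, its partner chain, was between 4.52 and 4.75, and Il1rapl2, a relative of the accessory chain, between 3.50 and 3.69. The genes of the IL-36 agonists, Il1f6, Il1f8 and Il1f9, were between 3.80 and 4.31, below the lymphocyte cytokine line. Of these, Il1f8 had the largest difference between the arm means of the 9 genes, 0.28, with 0.16 in WT2 and 0.40 in WTA. Within WT2 the difference of Il1r2 was larger, 0.76. Il1f5, which encodes the IL-36 receptor antagonist, was between 5.58 and 5.81, with -0.11 in WT2 and 0.15 in WTA.

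Markers of other cells that make or answer IL-33 were read beside these values. Of 6 measured endothelial markers, Thbd and Cd34 were above the array median on all arrays, while Pecam1, a defining one, was between 3.79 and 3.997. The summed linear level of the 6 was 1922 in WT2 and 2797 in WTA with streptozotocin, against 1899 in WT2 and 2609 in WTA without it. Both WTA arrays were thus above both WT2 arrays in this sum, of which Thbd made up 20.9% to 54.4%. Of the 6, 2 passed limma's test between the cultures, as did 2.25% of all probe sets, and they went in opposite directions. Esm1 was higher by 4.93 in WTA (limma adjusted p = 0.00304), and Cd34 had a difference of -1.07 (limma adjusted p = 0.0445). The sum is therefore not read as an amount of endothelial cells. Of 9 macrophage and dendritic markers, Csf1r and Lgals3 were above the median on all arrays, and Adgre1, a defining one, was between 2.79 and 3.16. Their summed level was 2331 in WT2 and 2563 in WTA with streptozotocin, against 2815 in WT2 and 2124 in WTA without it. Lgals3, which other cells also express, made up 84.8% to 87.4% of each sum. Lgals3 was highest on the WT2 control array and Csf1r on the WTA streptozotocin array. The remaining measured markers of this list, Adgre1 among them, lay below the median on all arrays, so the order of their arrays is not read. Of 7 lymphocyte and NK markers 0 were above the median on all arrays, with sums of 160 and 162 with streptozotocin and 158 and 157 in control cells. Kit, the 1 measured mast cell marker, was between 3.17 and 3.37. The part of such cells in the values of Il33 and its receptor, and in the culture difference of Il1f10, was not tested.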

How the data were processed

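Total RNA (0.5 ug, Trizol) was turned into biotin-labelled cRNA, per the labels' protocols. The deposited log2 values of 1246 probe sets on 4 arrays were made by the authors with RMA, per the submitters' processing notes. The version was not given in the sources used here. Such values have nearly equal distributions on all arrays, so a common shift of most genes would not show, and differences of dim probe sets are compressed. The number of arrays limits the precision. Probe sets were named from their accession through RefSeq (GRCm38.p6 table, names only), which gave 963 of 1246 a symbol.

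Here limma 3.58.1 in R 4.3.3 (lmFit, eBayes) was run over all probe sets with Benjamini-Hochberg adjustment and a threshold of 0.05, once for treatment and once for culture with treatment as a covariate. The culture fit was tested on simulated data, where it recovered 56.7% of 1.5-fold and 91.5% of 4-fold changes, with 4.04% of its calls false. The treatment fit was not tested in this way. Replicate numbers stand for the named cell samples, which both arms share, so they pair the arrays. The deviations of same-numbered arrays from the group means correlated at 0.600 over all probe sets. No block was used in the main treatment fit. Folds are 2 to the power of a log2 difference. Listed names were matched to the table's symbols through synonyms where needed (4 IL-36 genes). A listed gene with several probe sets was read from the brightest. Genes outside the members were named by rule: the measured genes of the family list, the 4 targets with the largest differences and the 5 profiles nearest to Il33. Alternatives were a replicate block, each array left out, a robust fit, an intensity trend, median centring, quantile normalization, leaving out dim probe sets, a culture fit without treatment and other background lines. The members and lists were chosen with earlier results of these data known.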

Additional observations from a re-analysis of the deposited data

Results flagged for a closer look

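The streptozotocin difference of 5 member probe sets went one way in WT2 and the other way in WTA. Each culture had 1 array in each arm, so this difference between the cultures was not tested. For Il33, WT2 minus WTA of the 2 differences was 3.17, for Il1rn 1.15, for Il1r1 1.02, for the brighter Il1rl1 probe set -0.71 and for Il18 0.29. Of all probe sets, 47.7% went in opposite directions.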

How the results depend on the processing

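For streptozotocin against control, limma called 0 probe sets under each alternative. With the replicate block, that is, with the arrays paired by culture, it called 0 as well, with 80 at an unadjusted p under 0.05 against 25 without it. The number of member probe sets with a positive difference was 5, between 5 and 7 with 1 array left out, and 7 after centring or quantile normalization. Leaving out 1 array unbalances the cultures, and the lone array of an arm is then assumed to vary like the others.

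Between the cultures, limma called 28 probe sets, 13 in a fit without the treatment term, 8 after quantile normalization, 2 of the 623 above the median level and 49 with a robust fit. With 1 array left out it called 0 to 18: 0 without either WTA array, 18 without the WT2 streptozotocin array and 12 without the WT2 control array. Of the members, Il1f10 was called, and kept its call after centring (adjusted p = 0.0300), with an intensity trend and in the robust fit, which called 2 members, the second being Il18 (adjusted p = 0.0352). In the fit without the treatment term 0 members were called, and for Il1f10 the adjusted p was 0.0531. After quantile normalization, with the filter and with any 1 array left out 0 were called too; the cause was not tested.

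The count of 5 member probe sets above background depends on the line: it was 9 with the lower quartile of each array and 9 with the lymphocyte cytokines. Signal near background limits what can be said of Il1a, the dimmer Il1rl1 and the dimmer Il1rap probe sets. The same holds for Il1b, below the median on all 4 arrays, and for the brighter Il1rl1 probe set in WTA, where both arrays were below it.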

Other observations

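The receptor genes Il1r2, Il1r1, Il1rl2, Il1rl1, Il18r1 and Il18rap follow each other without another protein-coding gene between them in the RefSeq table of mouse genes. In 5 of these 6 the value was lower in WTA than in WT2, as in 53.9% of all probe sets. WTA minus WT2 was -0.55 for Il1r2, -0.83 for Il1r1, -0.16 for Il1rl2, -1.02 for the brighter Il1rl1 probe set, -0.21 for Il18r1 and 0.06 for Il18rap. None of the 6 passed limma's test of the culture difference, the smallest adjusted p being 0.135 for Il1rl1, and 2 of the 6, Il1r2 and Il1r1, were above the array median on all arrays. The grouping by position was chosen after the values were seen.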
